A study of Mus musculus with 4 samples.

Results

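The Smads that carry or inhibit bone morphogenetic protein (BMP) signals are the intracellular arm of that pathway, and the Id genes are its best-known transcriptional readout. Here they are 10 genes, Smad1, Smad4, Smad5, Smad6, Smad7, Smad9, Id1, Id2, Id3 and Id4, taken by symbol from a table of 24873 genes. All 10 were found, each once, and all 10 passed the filter on low values (10 normalized counts on average over the 4 libraries).

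The RNA came from cerebral endothelial cells of mice in which matrix Gla protein (Mgp), a secreted BMP inhibitor, can be deleted from the endothelium. All libraries share one genotype, labelled Cdh5cre;Mgpflox/flox. The methods describe it as VE-cadherin cre/ERT2 Mgp fl/fl, a Cre recombinase driven by the VE-cadherin promoter that is switched on by tamoxifen. The control group (labelled No Tamoxifen, 2 libraries) carried the same alleles and received no tamoxifen. The tamoxifen group (labelled Tamoxifen treated, 2 libraries) was injected at 10 weeks of age with 75 mg/kg a day on 5 days, and cells were taken on day 9. A tamoxifen-treated group without floxed Mgp was not analysed here, so the drug and the deletion cannot be told apart. The sorted cells were pooled from 3 mice, and mice of both sexes were used. One passage of the study describes independent pools and another only 3 mice of each group, so p-values are given as measuring the spread between libraries. The labels call the cells brain tdTomato+, whereas the methods describe sorting of CD31+CD45- cells. The table heads its columns C and A. C was matched to the control titles, and A was taken as the only other labelled group.

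BMPs bind type I and type II receptor kinases, which phosphorylate the receptor Smads SMAD1, SMAD5 and SMAD9. These join the common partner SMAD4 and enter the nucleus. The inhibitory SMAD6 and SMAD7 are induced by the pathway and feed back on it. ID proteins are induced by the same complexes. They lack a DNA-binding domain and bind E proteins, the partners that tissue-specific basic helix-loop-helix (bHLH) factors need. In endothelium, ALK1 (gene Acvrl1) with the coreceptor endoglin (Eng) is the best-known receptor upstream of Id1 and Id3.

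Library facts bear on every value below. Recovered read totals ran from 35387438 to 49799321. The deleted gene itself, Mgp, stood at 1094 and 1352 normalized counts without tamoxifen and at 945 and 909 with it, a log2 fold change of -0.39 that was not called (limma, adjusted p = 0.0986) and that depended on the scale. It was 0.08 with equal totals, not called, and -0.64 with quantile normalization, where Mgp was called lower (limma adjusted p = 0.0126). Reads are summed over the gene, which leaves the labels without a check from the floxed exons. All 10 endothelial markers were present in every library and all 10 were lower with tamoxifen (median log2 fold change -2.87), among them Pecam1, which encodes the sorted antigen CD31 (-2.85), and Cdh5, whose promoter drives the Cre (-2.84). Their summed level was 788467 and 810871 normalized counts in controls against 147875 and 78424 with tamoxifen. Markers of other cells were higher in the tamoxifen libraries. Of 8 astrocyte markers 8 were higher (summed 28985 and 34647 in controls, 148340.0 and 309258 with tamoxifen). The same held for 8 of 8 oligodendrocyte lineage markers (2423 to 3054 against 23219 to 55306), 4 of 6 neuronal (1614 to 2019 against 13475 to 22341), 6 of 6 fibroblast (2257 to 3213 against 59759 to 69745) and 6 of 6 neutrophil markers (220.3 to 274 against 76747 to 102943). Higher levels were also found for 5 of 5 erythroid (17380.5 to 35081 against 101581 to 158663), 4 of 6 microglia and macrophage (1282 to 2452 against 3061 to 3160.3), 6 of 6 cell cycle (1027 to 1198 against 74012 to 76290.5) and 6 of 6 pluripotency markers (64.4 to 83.9 against 33526 to 42840.2). Of 8 pericyte and smooth muscle markers 1 was called higher and 0 lower (25708.5 to 45539 against 31947 to 65597). No marker on these lists was at 0 in either group. The part of these shifts in the results below was not tested, and in bulk RNA fewer endothelial cells and less of a transcript per cell cannot be told apart.

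With tamoxifen, 7 of the 10 genes were lower and 2 were higher. Smad9 was not called. Id1 and Id3, the most abundant of the set in control cells, fell to 14.3% and 17.2% of the control mean, and the inhibitory Smad6 and Smad7 fell to 22% and 33.6%. Smad1, Smad4 and Smad5 fell by less, to between 45.8% and 58.2%. Id2 and Id4 moved the other way, to 165% and 873% of the control mean. The test was limma on log2(normalized count + 1) across 20485 genes, with a gene called at a Benjamini-Hochberg adjusted p under 0.05. In the same fit 58.9% of all genes were called, 25.5% lower and 33.4% higher, so a call by itself is common here. The median log2 fold change was -0.98 over the 10 genes and 0.05 over all genes tested. The libraries of both groups did not overlap for 9 of the 10 genes, 7 lower and 2 higher, and for 82.3% of all genes tested, 39.2% lower and 43.1% higher. When an absolute log2 fold change over 1 was asked as well, 5 of the 10 genes were lower and 1, Id4, was higher, beside 16.0% and 28.6% of all genes. Scaling the libraries to equal totals raised the median of all genes by 0.47 and changed the split of calls from 6843 higher and 5228 lower to 9068 and 2862. Quantile normalization lowered it by 0.25, with 5845 genes higher and 7224 lower. Relative to the median of all genes, each of the 10 genes kept its direction under these scalings. Id1 lay at -2.94, -2.93 and -2.29, Id4 at 3.06, 3.06 and 2.57, and Smad9 at -0.16, -0.16 and -1.01, for the deposited scale, equal totals and quantiles respectively.

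**Figure D1:**
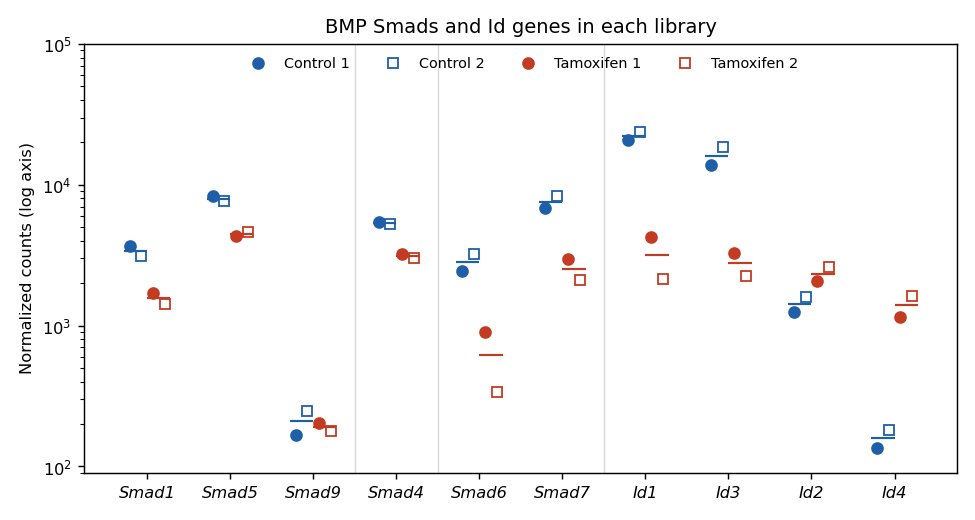
Normalized counts of the 10 genes (log axis) in each of the 4 libraries, with short lines at the group means, grouped from left to right as receptor Smads, the common partner, inhibitory Smads and Id genes. The red tamoxifen points of Id1 (4242 and 2135) and Id3 lie far below the blue control points, those of Id4 (1147 and 1633) lie far above them, and those of Smad9 overlap them.

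Of the receptor Smads, 2 of 3 were lower. Smad1 (GRCm39 chr8:80065023-80126168), a principal BMP receptor Smad of endothelium, had 3674 and 3144 normalized counts in controls and 1710.2 and 1416 with tamoxifen (3409 ± 374 against 1563 ± 208, SD, n = 2). Both tamoxifen libraries were lower than both controls, with a log2 fold change of -1.13 (SE 0.17, 95% CI -1.53 to -0.73, limma adjusted p = 0.000930). Without tamoxifen replicate 2 the change was -0.99 and the adjusted p was 0.0559. Smad5 (chr13:56850797-56890190), the receptor Smad with the highest normalized counts here, had 8321 and 7633 in controls and 4312 and 4592 with tamoxifen. These groups did not overlap either, and the change was -0.84 (SE 0.15, 95% CI -1.20 to -0.48, limma adjusted p = 0.00233). Smad9 (chr3:54662963-54708680), whose product is also called SMAD8, was scarce. It had 168 and 249 normalized counts in controls and 203 and 178 with tamoxifen. The groups overlapped, and the interval of the change ran from -0.88 to 0.67 around -0.11 (limma adjusted p = 0.798), so a fall or rise of moderate size is within the error. Per kilobase of exon, Smad9 made up 1.92% and 3.11% of the summed receptor Smad level in controls and 4.46% and 3.92% with tamoxifen, while Smad5 made up 71.5% and 71.9% in controls and 71.6% and 76.3% with tamoxifen. By this length the Smad5 share overlapped between groups (exact permutation test, two-sided, p = 0.667). These shares, and whether they overlap, depend on the length used. Smad1 has 9168 bases over all exons but 3121 in its canonical transcript. Per kilobase of canonical transcript, Smad5 (1191 and 1093) overlapped Smad1 (1177 and 1007) in controls.

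Smad4 (chr18:73769343-73836915), which encodes the partner shared by BMP and TGF-β Smads, was the least variable of the 10 between libraries of a group. It had 5469 and 5272 normalized counts in controls and 3212 and 3043 with tamoxifen (5371 ± 140 against 3128 ± 120, SD, n = 2). The change was -0.78 (SE 0.15, 95% CI -1.12 to -0.44, limma adjusted p = 0.00266). The calls of Smad4 and Smad5 depended on the scale. With equal totals their changes were -0.31 and -0.37 and neither was called (limma adjusted p = 0.0668 and 0.0566). Of the TGF-β receptor Smads, Smad3 had 6020.0 and 5170.3 normalized counts in controls and 3304 and 2574 with tamoxifen (-0.94, limma adjusted p = 0.00303), a call lost without tamoxifen replicate 2 (adjusted p = 0.0736). Smad2, its close relative, had 3300 and 3083 against 3147 and 2926, a log2 fold change of -0.07 that was not called (limma adjusted p = 0.697) and that was 0.40 with equal totals, where it was called higher (limma adjusted p = 0.0318), and 0.13 with quantile normalization.

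Both inhibitory Smads were lower. Smad6 (chr9:63860341-63929793), an inhibitor chiefly of BMP receptors and receptor Smads, had 2437 and 3224 normalized counts in controls and 905 and 338 with tamoxifen (2830.4 ± 557 against 621 ± 401, SD, n = 2). The tamoxifen libraries were far apart from each other and both lay below the controls. The change was -2.34 (SE 0.41, 95% CI -3.29 to -1.39, limma adjusted p = 0.00187), or 5.06-fold lower (95% CI 2.62 to 9.79). Without tamoxifen replicate 2 it was -1.63 and the adjusted p was 0.0534. Smad7 (chr18:75500374-75529006), which blocks BMP and TGF-β receptors and recruits ubiquitin ligases to them, had 6809 and 8264 normalized counts in controls and 2966 and 2096 with tamoxifen. The groups did not overlap, and the change was -1.59 (SE 0.21, 95% CI -2.07 to -1.11, limma adjusted p = 0.000427). Smad6 made up 32.4% and 34.3% of the summed inhibitory Smad level per kilobase in controls, and 29.0% and 17.7% with tamoxifen. The ratio of inhibitory to receptor Smads per kilobase was 1.41 and 1.93 in controls and 1.13 and 0.688 with tamoxifen. The groups did not overlap for either quantity, but with 2 libraries a group an exact permutation test cannot go below p = 0.33, the value it gave for both. The size of the ratio of inhibitory to receptor Smads depends on the length used. In controls Smad1 stood at 401 and 343 per kilobase of exon, but at 1177 and 1007 per kilobase of canonical transcript.

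**Figure D2:**
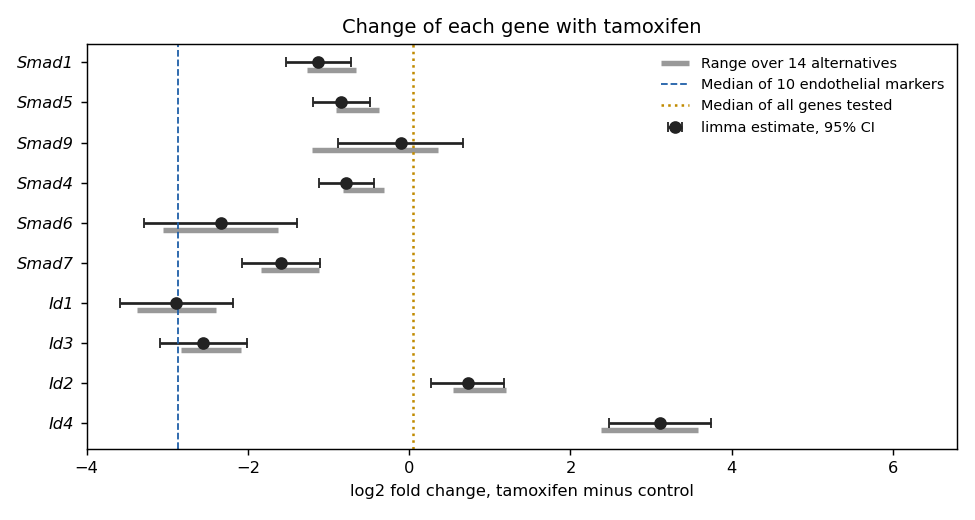
Log2 fold change, tamoxifen minus control, of each gene (points, limma estimate with 95% confidence interval; grey bars, range over 14 other ways of processing). The dashed line marks the median of 10 endothelial markers (-2.87), near Id1, and the dotted line the median of all genes tested (0.05); Id4 lies at 3.11, and only the intervals and bars of Smad9 cross 0.

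The Id genes divided into a pair that fell and a pair that rose. Id1 (chr2:152566218-152579544), the Id gene most closely tied to ALK1 in endothelium, had 20806 and 23829 normalized counts in controls, rank 297 of all genes listed. In the tamoxifen libraries it had 4242 and 2135 (22318 ± 2137 against 3189 ± 1490, SD, n = 2). The change was -2.89 (SE 0.30, 95% CI -3.59 to -2.19, limma adjusted p = 0.000159), or 7.40-fold lower (95% CI 4.55 to 12). Id3 (chr4:135870808-135873066), usually expressed with Id1 in vessels, had 13842.5 and 18435 normalized counts in controls and 3290.4 and 2248 with tamoxifen. Its change was -2.55 (SE 0.23, 95% CI -3.09 to -2.02, limma adjusted p = 9.43e-05). For both genes every tamoxifen library was far below every control library, and replicate 2 was the lower of the tamoxifen libraries.

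Id2 (chr12:25143798-25147282), known for roles in lymphoid and neural development, had 1245 and 1593 normalized counts in controls and 2065 and 2623 with tamoxifen (1419 ± 246 against 2344 ± 395, SD, n = 2). The groups did not overlap, and the change was 0.72 (SE 0.20, 95% CI 0.27 to 1.18, limma adjusted p = 0.0143). This was the least secure of the called genes. The adjusted p was 0.0776 without control replicate 1, 0.0890 without tamoxifen replicate 1, 0.180 without tamoxifen replicate 2 and 0.0810 without the intensity trend in limma, although Id2 was higher under each. Id4 (chr13:48414558-48419502), best known in neural precursors and astrocytes, was close to the bottom of the set in controls, with 136 and 183 normalized counts (99 and 146 reads). It had 1147 and 1633 with tamoxifen, so the lower tamoxifen library was far above the higher control. The change was 3.11 (SE 0.27, 95% CI 2.48 to 3.74, limma adjusted p = 8.28e-05), or 8.64-fold higher (95% CI 5.58 to 13.4). In the tamoxifen libraries Id2, Id4 and Smad5 were higher in replicate 2. So were the summed astrocyte, oligodendrocyte lineage, neuronal, and pericyte and smooth muscle markers. Id1, Id3, Smad1, Smad4, Smad6, Smad7 and Smad9 were lower in replicate 2. The same held for the summed endothelial, fibroblast, neutrophil, erythroid, microglia and macrophage, cell cycle and pluripotency markers. Whether these go together was not tested.

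The make-up of the Id family therefore differed between the groups. Per kilobase of exon, Id1 made up 59.1% and 55.4% of the summed Id level in controls and 47.1% and 33.7% with tamoxifen, and Id3 made up 39% and 42.5% against 36.2% and 35.2%. Id2 made up 1.80% and 1.89% in controls and 11.7% and 21.1% with tamoxifen. Id4 made up 0.149% and 0.164% in controls and 4.92% and 9.96% with tamoxifen. Id1 with Id3 thus outweighed Id2 with Id4 by 50.3 and 47.7 to 1 in controls, and by 5.02 and 2.22 to 1 in the tamoxifen libraries. Each of these shares and this ratio separated the groups (exact permutation test, two-sided, p = 0.33, the smallest possible with these libraries). With the length of the longest transcript in place of all exons the Id4 share was 0.126% and 0.139% against 4.27% and 8.88%.

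**Figure D3:**
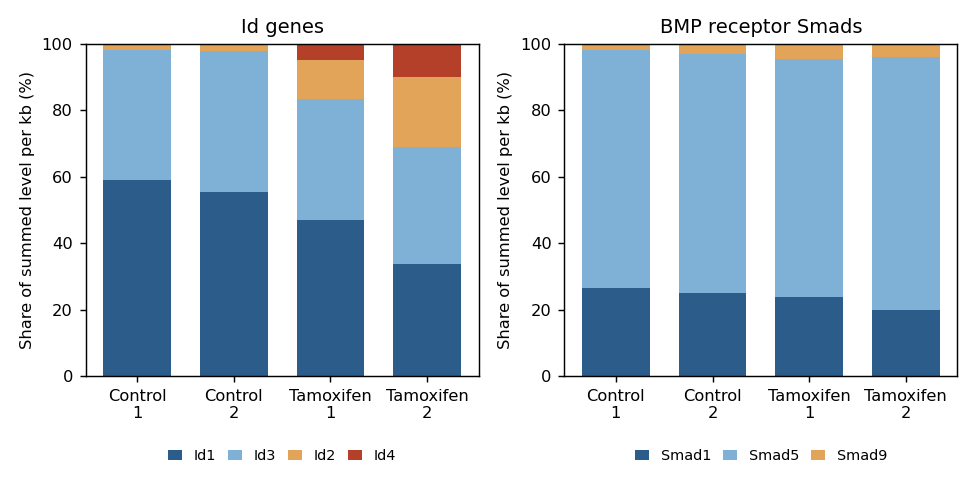
Share of each gene in the summed level per kilobase of exon, for the Id genes and the receptor Smads, with 1 stacked bar per library and axes from 0% to 100%. Id2 and Id4 widen from under 2% each in controls to 21.1% and 9.96% in tamoxifen replicate 2, while the Smad5 share stays between 71.5% and 76.3%.

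On the per-kilobase scale, the control order from high to low was Id1 (12573 ± 1204 normalized counts per kilobase, SD, n = 2), Id3 (9011 ± 1813), Smad7 (1588 ± 217), Smad5 (1033 ± 63.0), Smad6 (798 ± 157), Smad4 (739.9 ± 19.3), Id2 (407 ± 70.6), Smad1 (372 ± 40.8), Smad9 (35.8 ± 9.77) and Id4 (34.6 ± 7.25). The libraries of Smad6 and Smad4, of Id2 and Smad1, and of Smad9 and Id4 overlapped, so those neighbours were not separated. With tamoxifen the order was Id1 (1796 ± 839), Id3 (1546 ± 412), Id2 (673 ± 113), Smad5 (577 ± 25.6), Smad7 (533 ± 130), Smad4 (431 ± 16.5), Id4 (302 ± 74.8), Smad6 (175 ± 113), Smad1 (170.5 ± 22.7) and Smad9 (32.7 ± 2.96). Id4 ranked 10 in controls and 7 with tamoxifen by this length, and 9 and 8 by the longest or the canonical transcript. Here Id1 overlapped Id3, Id2 overlapped Smad5, Smad5 overlapped Smad7, Smad7 overlapped Smad4, Id4 overlapped Smad6, and Smad6 overlapped Smad1. The order of Smad1 also depends on the length used: with the longest transcript, Smad1 stood at 868 per kilobase in controls and ranked 6.

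Promoter sequence is shown for genes called in opposite directions and for Smad9, which was not called, to compare the letters before an annotated RefSeq start. Windows from the RefSeq promoter table (built on GRCm38.p6) were matched letter for letter to GRCm39, each at 1 place. Those kept were 9 windows of 7 of the 10 genes. Id1, Smad4 and Smad7 were not searched and are not shown. Whether these genes have a window or a match was not tested. The search was for the Smad box, GTCT on either strand (AGAC on the other), and for GGCGCC, a GC-rich element bound by BMP Smads, in the 250 bases before the start. Matches are in capitals. Where a window runs over annotated exons only the part outside exons, or a short stretch around a match, is printed. All 250 bases of the Id2 and Id3 windows lie in annotated exons of those genes, unlike most of the Id4 and Smad9 windows.
Id4 (chr13:48414342-48414557, plus strand): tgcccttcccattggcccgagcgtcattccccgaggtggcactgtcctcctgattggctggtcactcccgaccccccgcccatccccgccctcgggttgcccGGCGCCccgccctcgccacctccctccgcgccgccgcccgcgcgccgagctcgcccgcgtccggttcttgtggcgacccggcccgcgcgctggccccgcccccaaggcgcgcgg
Smad9 (chr3:54662753-54662962, plus strand): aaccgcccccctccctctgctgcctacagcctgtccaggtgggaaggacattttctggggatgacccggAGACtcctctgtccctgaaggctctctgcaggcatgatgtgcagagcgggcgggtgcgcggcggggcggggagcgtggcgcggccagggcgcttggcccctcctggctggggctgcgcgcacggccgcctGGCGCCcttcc
Smad6 (chr9:63929412-63929538, minus strand): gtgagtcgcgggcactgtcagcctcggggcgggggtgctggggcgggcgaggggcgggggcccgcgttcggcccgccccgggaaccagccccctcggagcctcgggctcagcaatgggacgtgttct
Id3 upstream site (chr4:135870954-135870983, plus strand): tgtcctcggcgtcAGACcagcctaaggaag
Id3 downstream site (chr4:135871052-135871081, plus strand): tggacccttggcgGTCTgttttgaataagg
Id2 upstream site (chr12:25146305-25146334, minus strand): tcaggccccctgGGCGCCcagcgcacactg
Id2 downstream site (chr12:25146098-25146127, minus strand): gagtgcacataaaAGACgccccgcccggct
The 250-base Id4 window, upstream of the gene that rose most, held 1 GGCGCC and 0 Smad boxes. The Smad9 window held 1 of each, as did the Id2 window, and the Id3 window held 2 Smad boxes and 0 GGCGCC. The Smad1 window held 0 of either, and the 3 windows of Smad5 held 1 or 2 Smad boxes each, and 1 of them also held 1 GGCGCC. The Smad6 window held 1 Smad box, which lies in an exon and so outside the stretch printed. GTCT occurred in 82.9% of 32851 windows of the same length and GGCGCC in 9.59%, so a Smad box match sets a gene apart little. Genes that fell and genes that rose both had matches. A match is a description of the letters and not a binding site.

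Because all endothelial markers fell, each gene was also expressed relative to the geometric mean of the 10 endothelial markers of the same library (66798 and 69232 normalized counts in controls, 12108 and 6357.5 with tamoxifen). Id1 stood at 31.1% and 34.4% of the mean in controls and 35% and 33.6% with tamoxifen, so it fell about as far as the markers did and the groups overlapped (exact permutation test, two-sided, p = 0.667). Id3 stood at 20.7% and 26.6% in controls and 27.2% and 35.4% with tamoxifen, and Smad6 at 3.65% and 4.66% against 7.47% and 5.31%. These groups came close without overlap. For the other genes the tamoxifen percentages stood further above the control percentages. Smad7 was at 10.2% and 11.9% in controls and 24.5% and 33.0% with tamoxifen, and Smad1 at 5.5% and 4.54% against 14.1% and 22.3%. Smad4 was at 8.19% and 7.61% against 26.5% and 47.9%, and Smad5 at 12.5% and 11% against 35.6% and 72.2%. For Id2 the values were 1.86% and 2.30% against 17.1% and 41.3%, and for Id4 0.203% and 0.264% against 9.47% and 25.7%. Smad9 was at 0.252% and 0.360% in controls and 1.67% and 2.80% with tamoxifen. On this scale no gene of the set had both tamoxifen values under both control values. The permutation p was 0.33 for every gene but Id1, the smallest the design allows.

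**Figure D4:**
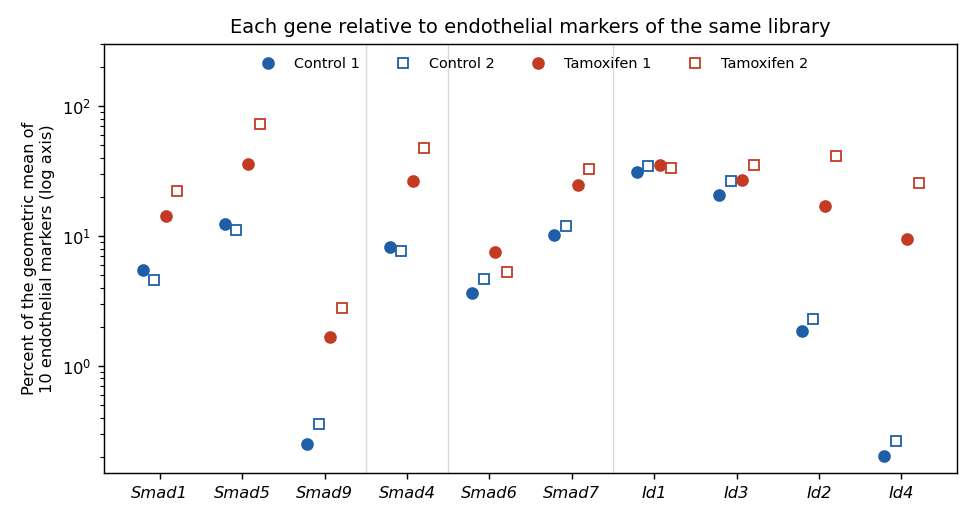
Each gene as a percent of the geometric mean of 10 endothelial markers in the same library (log axis), by library. The 4 points of Id1 lie together between 31.1% and 35%, whereas Id4 rises from 0.203% and 0.264% in controls to 9.47% and 25.7% with tamoxifen.

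For each gene the most similar other gene was sought among the 7780 genes that averaged 1000 normalized counts or more, by the Euclidean distance of log2 values centred on their mean over the 4 libraries. With 4 libraries many genes are close to any pattern, and the neighbours are given as a description. Id1 lay nearest to Podxl, which encodes a sialomucin of the vascular lumen (distance 0.05; 96404.5 and 106906 normalized counts in controls, 18838.5 and 9530 with tamoxifen). Id4 lay nearest to Mapt, which encodes the neuronal microtubule protein tau (0.12; 233 and 282 against 1907 and 2727.5). Id3 lay nearest to Stra6, a retinol transporter gene (0.14), Id2 to Gm2a, a lysosomal activator gene (0.06), and Smad6 to Notum, which encodes a secreted Wnt deacylase (0.22). Smad1 lay nearest to Smurf2 (0.04), which encodes a ubiquitin ligase for Smads and is itself on the regulator list below. The neighbours of Smad4, Smad5, Smad7 and Smad9 were Klhl20, Auts2, Zbtb16 and Ndufv3, at 0.02, 0.03, 0.02 and 0.04.

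The counts on this and the following lists stand beside 25.5% of all genes tested called lower and 33.4% called higher. Upstream of the Smads, 6 of 10 BMP and TGF-β receptors and coreceptors were lower, 2 were higher and 2 were not called (median -1.18). Acvrl1, the endothelial type I receptor ALK1, had 47879 and 52300.4 normalized counts in controls and 8461 and 3790.0 with tamoxifen (-3.14, SE 0.35, limma adjusted p = 0.000205). The coreceptor Eng fell by 2.95 and the type II receptor Bmpr2 by 2.20 on the log2 scale. The BMP type I receptor gene Acvr1 (ALK2) was also lower, with 4884 and 4790 in controls and 1967 and 1784 with tamoxifen (-1.37, limma adjusted p = 0.000188). The type I receptor genes Bmpr1a and Bmpr1b were higher. Bmpr1a had 342 and 413 in controls and 2946 and 3558 with tamoxifen (3.10, SE 0.19, limma adjusted p = 1.92e-05), and Bmpr1b, with 93.1 and 103 against 633 and 1387, rose by 3.25.

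Around the Smads, 15 of 27 regulators were lower, 4 were higher and 8 were not called (median -0.64). The lowest were Pmepa1, which encodes a membrane protein that sequesters receptor Smads (-1.69), Ctdsp1, a phosphatase gene (-1.52, not called without tamoxifen replicate 2), and Tob1, an antiproliferative corepressor gene (-1.31). The higher ones included the repressor genes Zeb2 (2.73), Tgif2 (2.36) and Tgif1 (0.97). Tgif2 rests on 2 and 4 reads in the control libraries, and its call was lost under 5 of the 13 alternatives that could test it. With equal totals the counts were 9 lower and 8 higher, and without tamoxifen replicate 2 they were 4 and 2.

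Over all genes tested 33.4% were higher and 25.5% lower. Of 16 other BMP-responsive genes tested, 9 were higher, 5 were lower and 2 were not called (median 1.17). The lower ones were led by the endothelial transcription factor genes Gata2 (-3.26), Atoh8 (-2.30) and Hey1 (-2.13). The higher ones were led by the secreted BMP antagonist gene Grem1 (7.28, from 10.96 and 8.76 normalized counts in controls to 1783 and 1579), the homeobox gene Msx2, which had 1 and 2 reads in controls and 97 and 191 with tamoxifen, and Bmper (5.07), which encodes an extracellular BMP modulator. The list holds genes of several tissues, and its median turned to -0.16 under a stricter filter of 100 normalized counts on average. With either of the tamoxifen libraries left out, 4 genes of the list were called higher, and without replicate 2 Atoh8 was at -1.88 and not called (limma adjusted p = 0.0553). Hamp was not listed.

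Downstream of the ID proteins, all 3 E protein genes were called lower. Tcf4, the most abundant, had 39976 and 36445 normalized counts in controls and 15510.2 and 20465 with tamoxifen (-1.10, SE 0.23, limma adjusted p = 0.00463). Tcf12 changed by -0.81 and Tcf3 by -0.47 (limma adjusted p = 0.0440). With quantile normalization, and without tamoxifen replicate 1, 0 of the 3 were called, and without tamoxifen replicate 2 only 1 was. Tcf3 was at 0.02 with quantiles and 0.00084 with equal totals. Of 13 tissue bHLH genes 9 were tested, of which 7 were higher and 2 were lower (median 3.24). The lower pair, Lyl1 (-1.38) and Tal1 (-0.79), encode blood and endothelial factors. Lyl1 was not called with tamoxifen replicate 1 or replicate 2 left out (limma adjusted p = 0.0567 and 0.122). Tal1 was not called with equal totals (-0.32, limma adjusted p = 0.207), without the trend (0.0919) or without tamoxifen replicate 2 (0.109). The higher ones included the neuronal and glial genes Neurog2, with 0 reads in both controls and 31 and 74 with tamoxifen, Neurod1 (4.36, not called with either tamoxifen library left out) and Olig2 (4.12). Olig1 and Olig2 are also on the oligodendrocyte marker list. Without tamoxifen replicate 1 the bHLH counts were 3 higher and 1 lower, and without tamoxifen replicate 2 they were 3 and 0.

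**Figure D5:**
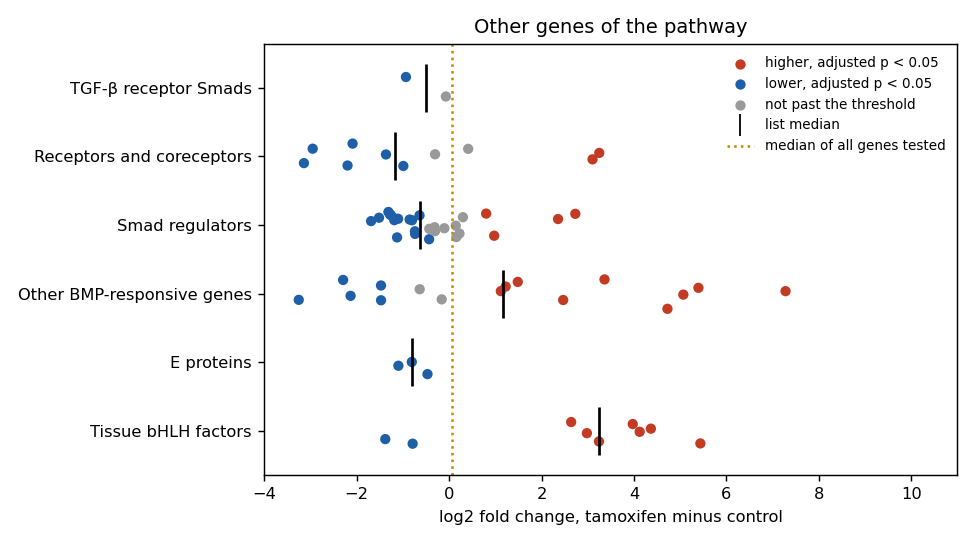
Log2 fold change, tamoxifen minus control, of every tested gene on each list around the Smads and Id genes, with list medians as bars and calls by color. Receptors have a median of -1.18 with Bmpr1a and Bmpr1b above 3, the regulators cluster near -0.64, and the tissue bHLH genes have a median of 3.24.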

How the data were processed

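RNA was sequenced from 4 libraries (KAPA stranded mRNA-Seq kit). Per the submitters' processing notes, the authors used bcl2fastq, aligned reads to GRCm39 with STAR 2.7.10a, filtered out weakly counted genes and scaled the rest in DESeq2 1.36.0. The limit for low counts, the annotation release and the strand setting are not given in the sources used here. Reads of Id3 and an overlapping listed gene on the other strand, Gm57159, may therefore not be separable. Gm55300, a listed gene, overlaps Smad5 on the same strand. It had 9.59 and 7.51 normalized counts in controls and 5.42 and 2.88 with tamoxifen. The deposited values are normalized counts, that is counts divided by a size factor per library (a scaled signal). Dividing by the smallest step gave whole reads for 100% of values in each library, within 0.01 reads.

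Values were log2-transformed after adding 1, genes with a mean under 10 were left out, and tamoxifen was compared with control in limma 3.58.1 (R 4.3.3) with an intensity trend and Benjamini-Hochberg adjustment. Scripts were tested on simulated data with 17725 genes, far fewer of them changed than were called here. At a simulated absolute log2 fold change of 1, 41 of 100 changed genes were called, and at 2, 100 of 100. Of the unchanged genes 8 were called. A gene not called is therefore not shown to be unchanged. Single ratios were compared by exact permutation. The alternatives included tests on these reads in edgeR 4.0.16 and DESeq2 1.42.0. Of 24873 symbols, 24364 matched GENCODE M39, the source of coordinates and lengths. Read totals set counting error, and 3 reads equal 2.16 to 4.11 normalized counts. Same-numbered libraries did not deviate together (r = 0.0251 across 20485 genes, which are not independent replicates), so no pairing was used. The genes and lists were chosen with earlier results of these data known. The genes named are all 10 Smad and Id genes, up to 3 called genes a direction with the largest change per list, Acvrl1, Bmpr1a, Tcf4, Smad2, Smad3, Mgp, Pecam1, Cdh5 and each nearest gene. Acvr1 was added after its values were seen.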

Additional observations from a re-analysis of the deposited data

How the results depend on the processing

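Over 14 alternatives, Id1, Id3, Id4 and Smad7 kept both direction and call in all 14. Their log2 fold changes ranged from -3.38 to -2.39, -2.83 to -2.08, 2.37 to 3.58 and -1.84 to -1.12. Smad1 ranged from -1.26 to -0.99 with a library left out, and Smad6 from -3.05 to -1.63. Both lost the call without tamoxifen replicate 2. Scaling to equal totals took Smad4 to -0.31 and Smad5 to -0.37, neither called, and Smad9 to 0.36. Quantile normalization took Smad9 to -1.21, called lower (limma adjusted p = 0.0133). With a library left out Smad9 ranged from -0.39 to 0.17, the latter without control replicate 2. Id2 stayed at 0.72 without the intensity trend, but was no longer called (limma adjusted p = 0.0810), and ranged from 0.55 to 0.90 with a library left out.

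Counts followed. Of the 10 genes, 1 was called higher without the trend and when an absolute log2 fold change over 1 was also asked, and 1 to 2 with a library left out. Over all genes tested, between 2648 and 6838 were higher and 1850 to 4757 lower with a library left out, the lowest numbers without tamoxifen replicate 2. Equal totals gave 2862 lower, and the fold limit 3284. Among the other named genes, equal totals turned Smad2 to 0.40, Mgp to 0.079 and Tcf3 to 0.00084, and quantiles turned Smad2 to 0.13 and Tcf3 to 0.020. With quantiles Mgp was at -0.64 and called lower (limma adjusted p = 0.0126). Outside the 10 genes, 383 of 417 log2 fold changes kept direction and call. The cause of these shifts was not tested, beyond the fewer libraries in the fits that leave 1 out. With the replicate number as a block, 7143 genes were higher and 5492 lower, and 2 and 7 of the 10 genes were called, so pairing changed no call among them.

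An exact permutation test of a single ratio cannot go below p = 0.33 with 2 libraries a group. Smad9 and, in controls, Id4 rest on 99 to 248 reads a library, so their changes carry the largest counting error of the set.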
